A study of Mus musculus with 12 samples.

Results

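Proximal T cell receptor signalling was described through the open chromatin of 37 genes whose products carry a signal from the receptor chains to the first enzymes inside the cell, or hold that signal back. Peaks of the 12 deposited lists were merged wherever they overlapped by 1 bp or more, which gave 76882 regions. A region belonged to a gene when its midpoint lay in the RefSeq body of the gene in mm10 or, outside all gene bodies, when an end of that gene was the nearest within 50 kb. The 37 genes held 461 regions, 343 in gene bodies and 118 outside, with 2 to 39 regions per gene and a median of 9. Regions are numbered along the chromosome within each gene, so Cd3e r1 is the region of Cd3e with the lowest coordinate. A promoter region came within 1000 bp of a gene start, or of either gene end for the 7 genes without a known strand here; 42 of the 461 were promoter regions and 419 were distal. The measure was the presence of a peak in a library and, where every library had one, the number of base pairs that its peaks covered.

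The libraries were made by ATAC-seq, in which a transposase cuts accessible DNA, from CD3+CD4+ T cells of Balb/c mice in 6 groups of 2 libraries. CD4 cells with the 6.5TCR, a transgenic receptor for a peptide of influenza hemagglutinin (HA), had been given to Aire-HA hosts, and bone marrow subsets were sorted at day 14. Donor cells were CD45.1-CD45.2+ and were sorted as not converted (donor Tconv, CD25-) or as converted to regulatory cells (donor Treg, CD25+LAP+; LAP is the latency peptide of TGF-beta). Host conventional cells (host Tconv) were CD45.1+CD45.2- and CD25-, and their library names carry Aire-HCO where the label calls them wild type. Host regulatory cells were CD45.1+CD45.2+, CD25+ and CTLA4+, and either Nrp1- (host pTreg) or Nrp1+ (host tTreg), so the CD45 sort differed between the host conventional and the host regulatory groups. The remaining group, iTreg, was induced in vitro, sorted as CD25+LAP+, and its library names read WT Balb/c. Donor cells carry the 6.5TCR, whereas host cells carry the receptors of the host. The labels do not say whether the libraries of a group came from separate animals, so p-values here measure only the spread between these libraries, which may be technical.

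Engagement of the receptor lets the Src family kinases Lck and Fyn phosphorylate the signalling motifs of the CD3 chains and of the zeta chain encoded by Cd247, and Zap70 binds these motifs. Zap70 phosphorylates the membrane adaptor Lat and the adaptor encoded by Lcp2, and this scaffold holds phospholipase C gamma 1 (Plcg1), which starts calcium entry through Stim1 and Orai1 and the activation of Rasgrp1 and of protein kinase C theta (Prkcq). Phosphatases, the kinase Csk, the ubiquitin ligases Cbl and Cblb and the diacylglycerol kinases Dgka and Dgkz limit the signal. Regulatory T cells use the same machinery and depend on receptor signals for their formation and function.

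The sequences directly before 9 gene starts are shown because these starts span the range from a peak in every library to a peak in few. Each runs for 250 bases 5′ to 3′ on the gene's own strand up to the base before the start, from RefSeq in the GRCm38.p6 build, which shares its coordinates with mm10. Capitals mark GGAA or TTCC, the core letters of sites for ETS factors, and TGTGGT or ACCACA, letters of RUNX sites, so that adjoining matches form 1 run of capitals. A peak overlapped the window of 250 bases before and 50 after the start in 12 libraries for Cd3g (chr9:44980432-44980681, minus strand), for Cd3e (chr9:45009612-45009861, minus strand), for both starts of Lck (chr4:129573642-129573891 and chr4:129558373-129558622, minus strand) and for start 1 of Txk (chr5:72752778-72753027, minus strand). It did so in 8 libraries for Prkcq (chr2:11172132-11172381, plus strand) and for start 1 of Dgka (chr10:128745085-128745334, minus strand), in 3 for Cd3d (chr9:44981536-44981785, plus strand) and in 2 for start 2 of Txk (chr5:72736603-72736852, minus strand).
Cd3g: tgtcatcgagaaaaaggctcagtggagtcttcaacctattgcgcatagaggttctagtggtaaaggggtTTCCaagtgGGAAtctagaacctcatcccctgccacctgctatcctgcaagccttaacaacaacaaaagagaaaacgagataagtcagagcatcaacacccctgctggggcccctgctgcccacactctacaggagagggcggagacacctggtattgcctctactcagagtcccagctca
Cd3d: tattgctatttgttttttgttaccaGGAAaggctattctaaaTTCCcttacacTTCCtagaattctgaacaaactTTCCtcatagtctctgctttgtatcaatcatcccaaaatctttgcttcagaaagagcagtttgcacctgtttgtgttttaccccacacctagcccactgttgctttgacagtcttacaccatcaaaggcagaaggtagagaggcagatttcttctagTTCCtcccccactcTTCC
Cd3e: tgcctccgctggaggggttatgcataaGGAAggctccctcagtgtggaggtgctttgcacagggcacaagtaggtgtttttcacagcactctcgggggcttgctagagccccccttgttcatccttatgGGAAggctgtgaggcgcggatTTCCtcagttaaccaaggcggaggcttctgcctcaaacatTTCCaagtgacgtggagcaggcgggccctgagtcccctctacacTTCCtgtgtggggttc
Lck start 1: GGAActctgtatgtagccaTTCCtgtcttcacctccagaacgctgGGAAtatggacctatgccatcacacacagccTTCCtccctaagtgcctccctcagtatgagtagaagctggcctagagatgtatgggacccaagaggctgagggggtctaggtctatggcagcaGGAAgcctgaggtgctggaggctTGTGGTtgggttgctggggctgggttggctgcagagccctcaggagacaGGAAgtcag
Lck start 2: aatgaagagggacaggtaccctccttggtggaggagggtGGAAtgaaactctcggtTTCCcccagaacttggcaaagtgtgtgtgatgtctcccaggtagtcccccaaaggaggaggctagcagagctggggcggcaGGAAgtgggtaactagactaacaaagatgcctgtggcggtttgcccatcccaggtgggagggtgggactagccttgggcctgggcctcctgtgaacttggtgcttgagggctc
Txk start 1: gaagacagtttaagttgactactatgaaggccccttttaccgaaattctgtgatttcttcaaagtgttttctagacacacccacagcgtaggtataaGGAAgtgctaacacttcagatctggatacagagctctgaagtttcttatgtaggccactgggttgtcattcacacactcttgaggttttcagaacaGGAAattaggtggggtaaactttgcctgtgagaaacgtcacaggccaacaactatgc
Txk start 2: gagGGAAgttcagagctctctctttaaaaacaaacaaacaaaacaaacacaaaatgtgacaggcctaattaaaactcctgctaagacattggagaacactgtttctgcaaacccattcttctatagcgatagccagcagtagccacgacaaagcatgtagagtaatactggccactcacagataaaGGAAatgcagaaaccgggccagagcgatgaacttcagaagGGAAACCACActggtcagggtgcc
Prkcq: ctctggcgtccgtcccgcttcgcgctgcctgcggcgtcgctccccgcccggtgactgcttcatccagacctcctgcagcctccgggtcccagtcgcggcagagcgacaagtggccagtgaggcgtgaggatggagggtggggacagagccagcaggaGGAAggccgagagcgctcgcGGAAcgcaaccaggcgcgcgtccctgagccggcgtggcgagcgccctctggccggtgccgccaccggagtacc
Dgka start 1: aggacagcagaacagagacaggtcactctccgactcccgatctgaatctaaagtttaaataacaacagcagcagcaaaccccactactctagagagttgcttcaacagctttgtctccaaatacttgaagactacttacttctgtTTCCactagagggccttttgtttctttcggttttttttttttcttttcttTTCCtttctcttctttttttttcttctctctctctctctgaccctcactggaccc

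The starts differed widely in base composition. The sequence before Cd3d holds 0 CpG and has a GC content of 41.2%, and those before Lck start 1 and Lck start 2 hold 1 and 3 CpG. The Prkcq sequence holds 30 CpG with a GC content of 72.4%. RefSeq windows were found for 43 starts of 30 of the 37 genes. Of these 43 windows, 28 (65.1%) had a peak in all 12 libraries and 8 (18.6%) had none, against 44.5% and 43.9% of 21262 windows of all protein-coding genes. The 28 windows with a peak everywhere had a median of 8 CpG over 300 bases, against 23 in the 9460 such windows of all genes. Searched on both strands, GGAA was found in 93.0% of the 43 windows and in 95.7% of all windows, and TGTGGT in 14.0% and 15.0%. The GC box GGGCGG was found in 46.5% and 46.2%, the E-box CANNTG in 83.7% and 69.0%, TATAAA in 7.0% and 12.6%, and the AP-1 letters TGANTCA in 0 of the 43 windows and 7.0% of all. These matches describe letters in a window and were not tested for binding.

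Peak lists held 28394 to 63207 peaks, and the depth behind them is unknown. They were longest in iTreg (58357 and 63207) and shortest in the in vivo regulatory groups (28394 to 37934), against 37050 to 47193 in the conventional groups. The numbers in the library names were at most 17000 for regulatory cells sorted in vivo and at least 42000 for all others, so regulatory and conventional cells in vivo cannot be told apart from this number or from list length. Host regulatory libraries carry the run code DR31, the donor and host Tconv libraries BW13, and iTreg none, so host and donor regulatory cells cannot be told apart from the run code. A missing peak is therefore not evidence of closed chromatin, and in these bulk libraries a region open in fewer cells and one less open in every cell cannot be told apart. Of the 7 genes that mark CD4 T cells, 5 had a promoter region with a peak in all 12 libraries and 7 in at least 1 library. Regions of the regulatory markers Foxp3, Il2ra, Ctla4, Ikzf2 and Lrrc32 with a peak numbered 26 to 31 in host Tconv, 38 to 39 in donor Tconv, 43 to 52 in the in vivo regulatory libraries and 37 to 41 in iTreg, and Foxp3 had no promoter region. Regions of Cd8a and Cd8b1 with a peak numbered 5 to 8 of 12 in conventional, 0 to 1 in in vivo regulatory and 6 to 7 in iTreg libraries, and Cd8a had no promoter peak in any. Those of 6 myeloid markers numbered 14 to 19, 7 to 10 and 18 to 19 of 27, with no promoter peak at Csf1r or Mpo. Those of 5 B cell markers numbered 2 to 7 in all in vivo libraries and 13 to 16 in iTreg, with no promoter peak at Cd79a or Pax5. The part of these marker regions in the differences below was not tested.

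Promoter regions of the signalling genes were largely shared by the 6 groups, whereas most distal regions lacked a peak in at least 1 library. A peak was present in all 12 libraries at 169 of the 461 regions (36.7%), against 27.9% of all 76882 regions. Among promoter regions the share was 36 of 42 (85.7%, against 71.5%), and among distal regions 133 of 419 (31.7%, against 19.1%). A promoter region with a peak in every library was found for 31 of the 37 genes. No promoter region was found for 3 genes, namely Grap2, Ptpn6 and Sla. Grap2 encodes an adaptor that binds the Lcp2 product, Ptpn6 a phosphatase, and Sla an adaptor that promotes the removal of the receptor. This absence rests on the starts used. For Grap2 the only start used was chr15:80623483, inside a gene body that begins at chr15:80572597. For Sla only the gene ends were used. The number of the 461 regions with a peak was 331 ± 8.49 (SD, n = 2) in donor Tconv, 315 ± 11.31 in host Tconv and 330.5 ± 9.19 in iTreg. It was 258 ± 11.31 in donor Treg, 282.5 ± 31.82 in host pTreg and 249 ± 36.77 in host tTreg. The conventional libraries (307 to 337) and iTreg (324 and 337) lay above every in vivo regulatory library (223 to 305). The conventional lists were also longer than most of the in vivo regulatory ones, while the iTreg lists, the longest, held no more of these regions than donor Tconv. Promoter regions contributed 37 to 39 of the regions in each library, so that the groups differed almost entirely at distal regions.

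**Figure D1:**
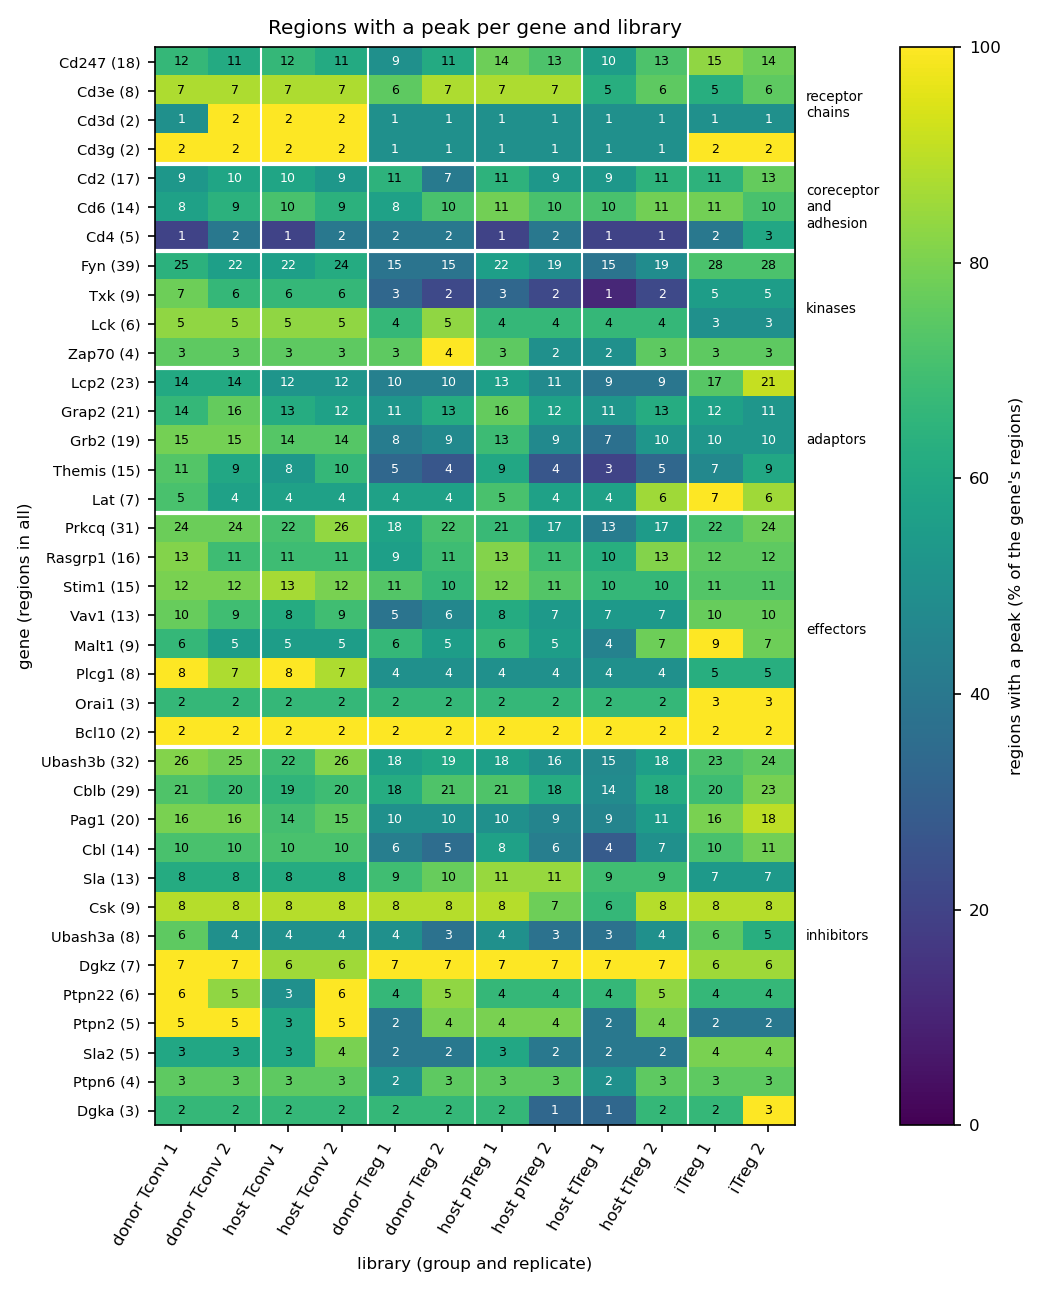
Number (printed) and percentage (colour) of each gene's regions that have a peak in each of the 12 libraries, with the 37 genes ordered by role. Conventional and iTreg columns hold 307 to 337 regions and in vivo regulatory columns 223 to 305.

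By role, a peak in every library was found at 11 of 30 regions of the receptor chains (Cd3e, Cd3d, Cd3g and Cd247), 11 of 36 of the coreceptor and adhesion genes (Cd4, Cd2 and Cd6) and 19 of 58 of the kinases (Lck, Fyn, Zap70 and Txk). It was found at 21 of 85 regions of the adaptors (Lat, Lcp2, Grb2, Grap2 and Themis), 43 of 97 of the effectors (Plcg1, Prkcq, Bcl10, Malt1, Vav1, Rasgrp1, Stim1 and Orai1) and 64 of 155 of the inhibitors (Ptpn6, Ptpn22, Ptpn2, Csk, Pag1, Ubash3a, Ubash3b, Cbl, Cblb, Dgka, Dgkz, Sla and Sla2). Fyn, with 39 regions, and Ubash3b, with 32, had the most, and Cd3d, Cd3g and Bcl10, an adaptor that binds the Malt1 product, had 2 each.

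The Cd3e, Cd3d and Cd3g genes lie together on chromosome 9 and encode the epsilon, delta and gamma chains that carry the receptor's signalling motifs. The promoter region Cd3e r4 was covered over 1830 and 1774 bp in donor Tconv, 1749 and 1839 bp in host Tconv, 1754 and 1760 bp in donor Treg, 1913 and 1738 bp in host pTreg, 1102 and 1803 bp in host tTreg, and 1825 and 1801 bp in iTreg. The 11 libraries other than host tTreg replicate 1 lay between 1738 and 1913 bp. The promoter region Cd3g r2 was likewise present throughout, at 965, 894, 833 and 1018 bp in the conventional libraries, 922 and 803 bp in donor Treg, 953 and 777 bp in host pTreg, 511 and 984 bp in host tTreg, and 903 and 909 bp in iTreg. Cd3g r2 was counted for Cd3g, where its midpoint lies, but it also comes within 1000 bp of the Cd3d start. The Cd3d start itself behaved otherwise. Its region Cd3d r1 (chr9:44980934-44982953) had a peak of 1825 bp in donor Tconv replicate 2 and of 1658 and 2008 bp in host Tconv, and no peak in donor Tconv replicate 1 or in any of the 8 regulatory libraries. The 3 peaks were all in conventional libraries, but the difference did not pass Fisher's exact test over all regions (unadjusted p = 0.0182, adjusted p = 0.119). The other region of the gene, Cd3d r2, lies 2.6 kb inside it and was covered over 1784 to 2932 bp in every library.

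Around the cluster, distal regions split the groups in both directions. Cd3g r1, 6.7 kb inside Cd3g, had peaks of 370, 249, 211 and 441 bp in the 4 conventional libraries and of 150 and 199 bp in iTreg, and none in the 6 in vivo regulatory libraries. Cd3e r7 (chr9:45018677-45019295), 9.1 kb from the Cd3e start, showed the opposite, with 500 and 364 bp in donor Treg, 489 and 487 bp in host pTreg, 434 and 619 bp in host tTreg and no peak in conventional or iTreg libraries. Cd3e r6, 6.1 kb from the start, had a peak in all 10 in vivo libraries (187 to 630 bp) and in neither iTreg library. Cd3e r5, 5.1 kb away, lacked a peak only in the host tTreg libraries, and its peaks elsewhere covered 228 to 611 bp. These 4 distal regions each had a different set of groups.

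**Figure D2:**
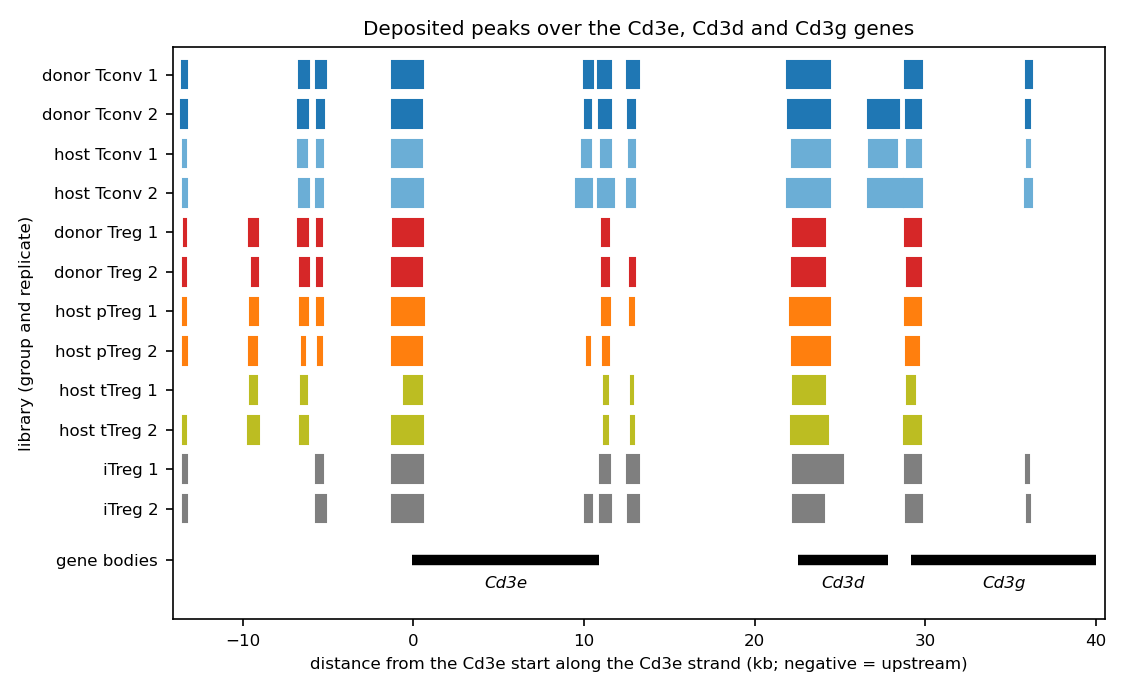
Peaks of the 12 libraries around Cd3g, Cd3d and Cd3e against the distance from the Cd3e start in kb, with gene bodies below. The Cd3e and Cd3g promoter regions are open in every library, the Cd3d start in 3 conventional libraries, and Cd3e r7 in the 6 in vivo regulatory libraries.

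Cd247, on chromosome 1, had a promoter region in every library. Cd247 r2 was covered over 2733, 2713, 2548 and 3601 bp in the conventional libraries, 2174 and 2127 bp in donor Treg, 2599 and 2173 bp in host pTreg, 1715 and 2098 bp in host tTreg, and 2451 and 2712 bp in iTreg. Conventional and regulatory values overlapped. Inside the gene, Cd247 r3 had no peak in the 4 conventional libraries or in donor Treg replicate 1 and a peak of 267 to 470 bp in the 7 others. Also in the body, 42.7 kb from the start, Cd247 r12 had a narrow peak of 187 and 197 bp in host pTreg and in no other group (0.148% of all regions had this pattern).

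Cd4, the coreceptor that brings Lck to the receptor, was used in every sort. RefSeq gave no start by strand for it, so both gene ends were used. Cd4 r4, at one of these ends, had a peak only in donor Treg (548 and 811 bp) and in host pTreg replicate 2 (645 bp), and did not pass Fisher's exact test (adjusted p = 0.730). Cd4 r3, 1.4 kb from an end, was present in all libraries, at 1985, 1839, 1799 and 1971 bp in conventional libraries, 1491 and 1670 bp in donor Treg, 1456 and 636 bp in host pTreg, 649 and 1025 bp in host tTreg, and 1965 and 2000 bp in iTreg. The 6 in vivo regulatory values lay below the 4 conventional ones. Cd2, an adhesion receptor that costimulates T cells, had Cd2 r9 (2.3 kb from an end) in iTreg only, at 1441 and 1201 bp.

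Lck has an upstream and a downstream start and both were open in every library. The promoter region Lck r3 was covered over 921, 854, 802 and 1127 bp in conventional libraries, 785 and 796 bp in donor Treg, 864 and 787 bp in host pTreg, 764 and 809 bp in host tTreg, and 978 and 1141 bp in iTreg. The promoter region Lck r6 varied more, with 2293, 2035, 1222 and 2236 bp in conventional libraries, 682 and 965 bp in donor Treg, 1899 and 1009 bp in host pTreg, 789 and 1990 bp in host tTreg, and 2384 and 2490 bp in iTreg. At Lck r6 both donor Treg libraries lay below both iTreg libraries and all conventional ones, while each host regulatory group held 1 high and 1 low library. A pair of distal regions had opposite patterns. Lck r1 (chr4:129547317-129548024), outside the gene, was present in the 6 in vivo regulatory libraries (310 and 708, 262 and 273, 275 and 280 bp) and nowhere else. Lck r2, 8.8 kb from a start, was present in the 4 conventional libraries (187, 228, 188 and 234 bp) and nowhere else.

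Zap70 encodes the kinase that docks on the phosphorylated chains. Zap70 r1, its promoter region, was covered over 1562, 1669, 1344 and 1473 bp in conventional libraries, 1445 and 1350 bp in donor Treg, 1504 and 1367 bp in host pTreg, 1099 and 1587 bp in host tTreg, and 2200 and 2247 bp in iTreg. The iTreg libraries were the widest and the in vivo groups overlapped. Lat, the membrane scaffold, had its promoter region Lat r7 covered over 1689, 1714, 1148 and 2139 bp in conventional libraries, 886 and 947 bp in donor Treg, 2129 and 1494 bp in host pTreg, 1218 and 1385 bp in host tTreg, and 2472 and 2581 bp in iTreg. Donor Treg was the lowest group there and iTreg the highest, without overlap of either with the other libraries.

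Of the 6 promoter regions without a peak in every library, Cd3d r1 and Cd4 r4 are given above and the others lay at Prkcq, Txk and Csk. Prkcq r8 covers the start of the gene for protein kinase C theta, which links the receptor to NF-kappa-B. It was covered over 3036, 3126, 1513 and 3852 bp in the conventional libraries, over 881 to 1180 bp in the 6 in vivo regulatory libraries, and had no peak in iTreg. Conventional and in vivo regulatory values did not overlap. Txk, a Tec family kinase, had the region Txk r4 at its start 2 in iTreg only (818 and 891 bp). Csk, the kinase that inactivates Lck, had Csk r7 in iTreg only (1030 and 1077 bp), while Csk r5 had a peak in 9 in vivo libraries (484 to 1619 bp) and none in host tTreg replicate 1 or iTreg.

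Regions found in 1 group only were mostly those of iTreg. Both iTreg libraries and no other had a peak at 29 of the 461 regions (6.29%), against 16.5% of all regions. They were 27 distal (6.44%, against 18.2%) and 2 promoter regions (4.76%, against 7.53%); they lay in 19 genes with covered lengths of 150 to 1696 bp. Fyn held 6 of them, among them Fyn r25 (1287 and 1696 bp) and Fyn r21 (936 and 1182 bp), 123.4 and 114.3 kb inside the gene. Pag1, the membrane anchor of Csk, held 3, and Lcp2, Cbl and the exchange factor gene Vav1 held 2 each, with Vav1 r12 covered over 955 and 999 bp. Ptpn6 r1 (750 and 786 bp) and Cd247 r5 (427 and 440 bp) were further examples. Donor Treg had 1 such region, Ubash3b r19 (237 and 270 bp), 18.7 kb from a start of the gene for a phosphatase that acts on Zap70, where 0.0624% of all regions had this pattern. Donor Tconv, host Tconv and host tTreg had 0 (0.553%, 0.147% and 0.0312% of all regions). With all lists cut to the length of the shortest, the iTreg count fell from 29 to 11 (2.99%, against 6.36% of all regions).

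The conversion of donor cells was compared by presence in donor Treg and donor Tconv, where 2 libraries against 2 cannot give a p below 1 in 3, so counts are given without a test. Of 378 regions with a peak in these 4 libraries, 66 (17.5%) had a peak in both donor Tconv libraries and in neither donor Treg library, against 19.9% of all regions. All 66 were distal (19.5% of 338, against 24.4%), 0 of 40 promoter regions had this pattern (against 3.92%), and they lay in 23 genes. Fyn and Ubash3b had 7 each and Themis, an adaptor needed for thymocyte selection, Grb2, Cbl, Pag1 and Lcp2 had 5 each. By role, 2 belonged to receptor chains, 4 to coreceptor and adhesion genes, 11 to kinases, 17 to adaptors, 11 to effectors and 21 to inhibitors. Of the 66, 49 also had a peak in both host Tconv libraries and 38 in no host regulatory library. With lists of equal length 30 of 312 regions had this pattern (9.62%, against 9.43% of all regions) and 22 the reverse (7.05%, against 7.82%), so that the size of the difference moves with list length.

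In the other direction 11 of the 378 regions (2.91%, against 2.41%), in 9 genes, were found in donor Treg and not in donor Tconv. They comprised 10 distal regions (2.96%, against 2.86%) and the promoter region Cd4 r4 (2.5%, against 0.535%). Of the 11, 7 also had a peak in all 4 host regulatory libraries. Sla r1 (chr15:66785295-66785851), 4.5 kb from an end of Sla, was covered over 478 and 465 bp in donor Treg, 541 and 553 bp in host pTreg, and 308 and 514 bp in host tTreg. Cd6 r12 (chr19:10821338-10821852), 8.2 kb from an end of Cd6, a surface receptor that adjusts the signal, was covered over 496 and 420, 456 and 455, and 383 and 346 bp in the same groups. Neither had a peak in the 4 conventional or the 2 iTreg libraries. Cd3e r7 and Lck r1, described above, showed this same set of libraries, and these 4 were the only regions of the 461 found in all in vivo regulatory libraries and nowhere else. The remaining regions were Sla r4, Cblb r8, Malt1 r6, Cd6 r7, Rasgrp1 r2, Cd4 r4 and Ubash3b r19. Without donor Treg replicate 1 or 2 the count was 22 and 17, since the remaining library alone then decides.

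Donor and host conventional cells differed at few of these regions. Of 370, 6 had a peak in donor Tconv only (1.62%, against 4.4%) and 0 in host Tconv only (against 0.557%). The 6 were Lcp2 r3, Lcp2 r15, Grb2 r10, Grap2 r20, Dgkz r7 and Pag1 r8. Lcp2 r3, 10.2 kb outside the gene, was covered over 350 and 344 bp in donor Tconv and over 392 to 475 bp in the 6 in vivo regulatory libraries, with no peak in host Tconv. With lists of equal length the counts were 2 and 10 of 300 (0.667% and 3.33%, against 2.54% and 2.04% of all regions), so that the larger count changed side for these genes and not for all regions. The counts also moved with single libraries, to 12 and 3 without donor Tconv replicate 1, 19 and 4 without donor Tconv replicate 2, 15 and 9 when host Tconv replicate 1 was dropped, and 25 and 11 for host Tconv replicate 2.

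Nrp1- and Nrp1+ host regulatory cells also differed at few regions. Of 327 regions, 10 had a peak in host pTreg only (3.06%, against 3.35%), among them Cd247 r12, Lcp2 r10, Grb2 r12, Cblb r23 and Cd3e r5, and 1 in host tTreg only (0.306%, against 0.452%). The single region was Cd2 r14, 12.1 kb from an end of Cd2, with 685 and 724 bp in host tTreg and 668 bp in donor Treg replicate 1. Without host pTreg replicate 2 or host tTreg replicate 2 the host pTreg count was 41 and 35, and without host pTreg replicate 1 it was 17. The host tTreg count rose to 11 when host tTreg replicate 1 was dropped, to 3 for host tTreg replicate 2 and to 4 for host pTreg replicate 1.

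Donor Treg and iTreg are both regulatory and were both sorted by CD25 and LAP, but formed in the animal and in culture. Of 400 regions, 84 had a peak in iTreg only (21%, against 34.7%) and 30 in donor Treg only (7.5%, against 2.92%). Among 359 distal regions these were 82 (22.8%, against 39.7%) and 27 (7.52%, against 3.33%). Among 41 promoter regions they were 2 (4.88%, against 13.1%), namely Txk r4 and Csk r7, and 3 (7.32%, against 0.804%), namely Prkcq r8, Csk r5 and Cd4 r4. With lists of equal length 27 of 304 regions were in iTreg only (8.88%, against 13.9% of all regions) and 57 in donor Treg only (18.8%, against 12.6%), so that the larger count changed side for these genes and not for all regions. Fyn had 13 of the 84, Lcp2 8, Pag1 7 and Cbl and Ubash3b 6 each. Of the 30, Cblb and Ubash3b had 4 each and Grap2 and Sla 3 each; 16 belonged to inhibitors, 7 to adaptors, 3 to coreceptor and adhesion genes, 2 to receptor chains, and kinases and effectors had 1 each. A peak in all 4 conventional libraries was also present at 18 of the 30, and 12 had a peak in all 10 in vivo libraries. Examples of these 12 are Lcp2 r7 (265 to 440 bp), Themis r2 (150 to 512 bp) and Cbl r6 (229 to 444 bp), each without a peak in either iTreg library. Dgkz r6, a distal region in the body of the gene for diacylglycerol kinase zeta, was covered over 820, 880, 808 and 1020 bp in conventional libraries, 669 and 732 bp in donor Treg, 326 and 309 bp in host pTreg, and 150 and 306 bp in host tTreg. The donor groups and host Tconv lay above the host regulatory groups there, which carry the other run code.

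**Figure D3:**
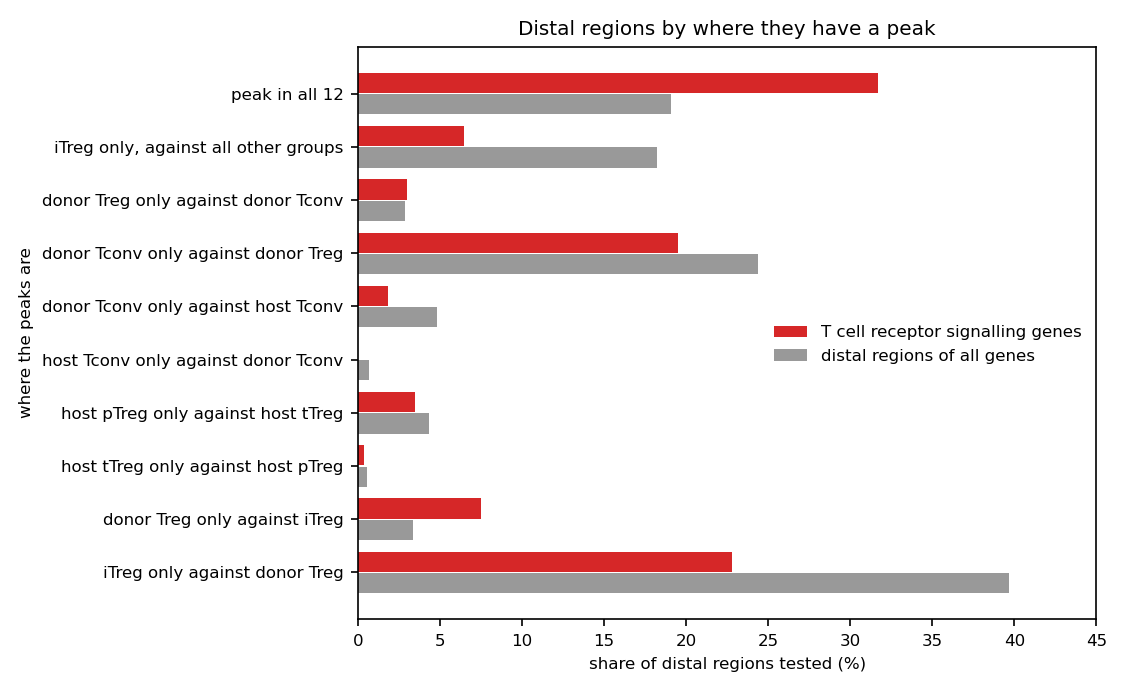
Percentage of the distal regions of the 37 genes in each of 10 categories against the percentage for all distal regions of protein-coding genes. The share found in every library is 31.7% against 19.1%, and the share found in iTreg only is 6.44% against 18.2%.

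All 8 regulatory libraries were then compared with the 4 conventional ones by Fisher's exact test, two-sided, with Benjamini-Hochberg adjustment over 18887 regions, those whose number of peaks allows an unadjusted p under 0.05. Of 128 regions of the signalling genes, 11 (8.59%, against 4.98%) were called for conventional and 2 (1.56%, against 1.39%) for regulatory cells (p = 0.00202, adjusted p = 0.0317 for Fisher's exact test), each with a complete split of 12 libraries; 32 had an unadjusted p under 0.05. All 13 called were among the 125 distal regions tested (8.8%, against 5.27%, and 1.6%, against 1.42%). Leaving out any of 9 libraries ended all calls, and calls were made only without host Tconv replicate 1 or either iTreg library; the smallest possible p rose in all 12 settings, to 0.00303 or 0.006061. With lists of equal length both regulatory calls were lost and only 4 of the 11 conventional regions were still called. Of the 13 regions, 2 were tested there and missed the threshold, and the rest that were not called could no longer be tested.

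The conventional calls fell on kinases, adaptors, effectors and ubiquitin ligases. The widest was Prkcq r16 (chr2:11216114-11217431), 43.7 kb inside the gene, covered over 1239 and 961 bp in donor Tconv and 898 and 1037 bp in host Tconv. Plcg1, the phospholipase that makes diacylglycerol and inositol trisphosphate, had Plcg1 r4 (658, 525, 476 and 592 bp in the same order) and Plcg1 r6 (481, 397, 423 and 512 bp). Txk r3 was covered over 427, 388, 286 and 717 bp. These 4 regions had no peak in any of the 8 regulatory libraries, and donor and host values overlapped.

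The other conventional calls were narrower. Among adaptors, Themis r8 covered 315, 354, 316 and 367 bp, and for Grb2, the adaptor that brings the Ras activator Sos to Lat, Grb2 r5 covered 354, 401, 315 and 539 bp and Grb2 r9 380, 341, 188 and 330 bp. Among kinases, Fyn r27 covered 362, 277, 373 and 277 bp, and Lck r2 is given above. For the ubiquitin ligases that mark signalling proteins for removal, Cblb r3 covered 354, 386, 370 and 356 bp and Cbl r3 323, 235, 270 and 326 bp. Donor and host conventional values overlapped at each except Grb2 r9, where both donor values were higher.

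Both regulatory calls lay inside or near genes that adjust or pass on the signal. Cd6 r7 (chr19:10800979-10801461) was covered over 238 and 271 bp in donor Treg, 483 and 337 bp in host pTreg, 150 and 469 bp in host tTreg, and 195 and 230 bp in iTreg. Rasgrp1 r2 (chr2:117303959-117304610), 38.3 kb from the start of the gene for a Ras exchange factor that diacylglycerol activates, was covered over 380 and 488, 556 and 390, 266 and 347, and 434 and 569 bp in these groups. No conventional library had a peak at either.

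With iTreg left out, 6 in vivo regulatory against 4 conventional libraries, 28 of 121 regions (23.1%, against 21.5%) were called for conventional and 6 (4.96%, against 3.35%) for regulatory cells (adjusted p = 0.0192, Fisher's exact test), in 18 genes. All 34 were among 119 distal regions (23.5%, against 22.1%, and 5.04%, against 3.41%), shares near those of all regions. The 28 lay in 14 genes, with 4 each in Ubash3b and Cbl and 3 each in Fyn and Plcg1, and 24 were in gene bodies. Both iTreg libraries had a peak at 14 of the 28, a single iTreg library at 3, and neither library at 11. The 6 were Sla r1, Cd6 r7, Cd6 r12, Rasgrp1 r2, Lck r1 and Cd3e r7, with covered lengths of 150 to 708 bp. With lists of equal length 11 of the 28 and 5 of the 6 were still called. Within run code BW13 alone, 2 libraries against 4, the smallest p possible is 0.0667, so no call could be made.

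**Figure D4:**
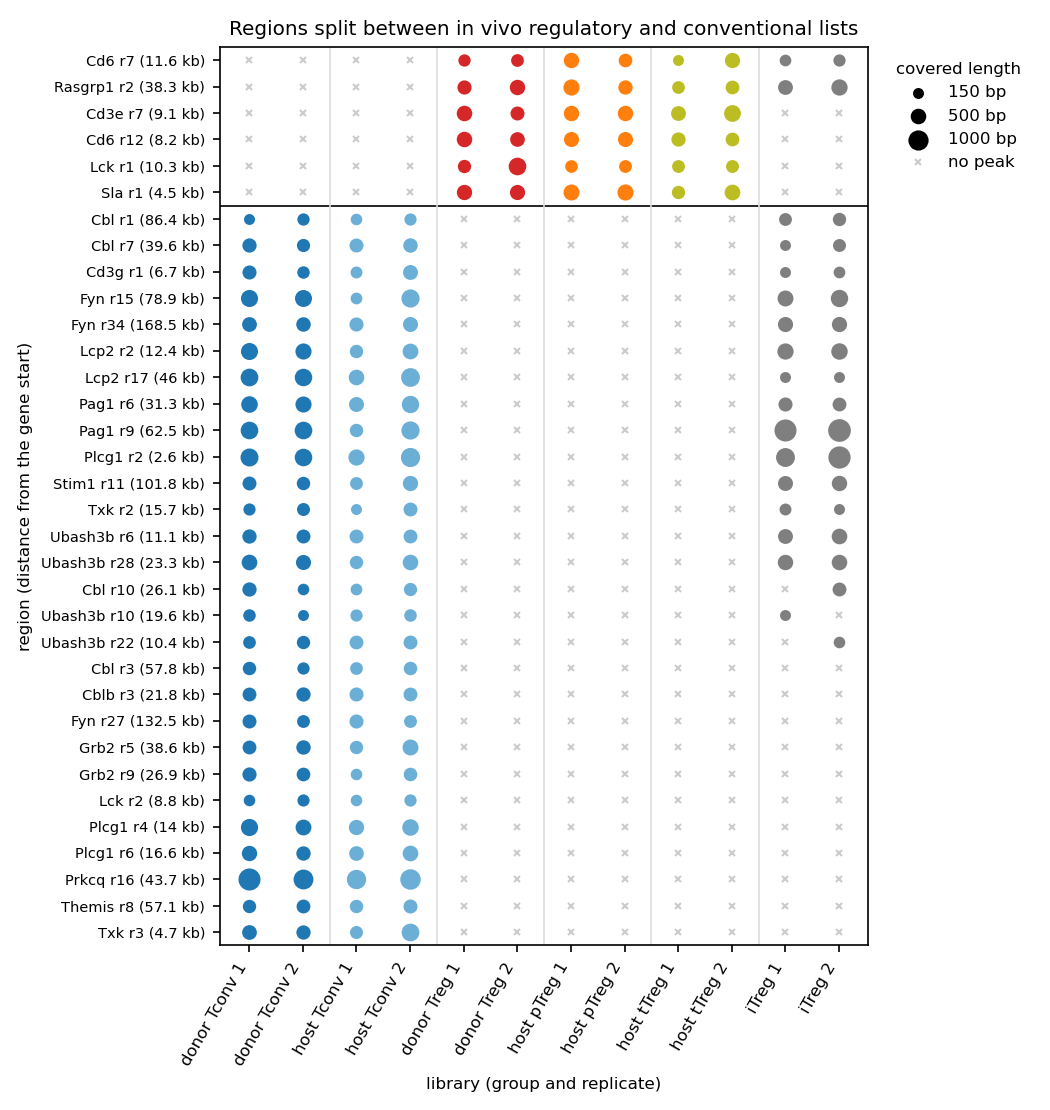
The 34 regions that separate all in vivo regulatory from all conventional libraries (rows), by library (columns); dot size is the covered length in bp and a cross marks no peak. The upper block holds the 6 regulatory and the lower block the 28 conventional regions, and iTreg has a peak in both libraries at 14 of the 28.

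Where every library had a peak, the covered length was compared with limma on log2 base pairs, each library centred on its median over the 21435 such regions, with adjustment over all of them. The 169 regions of the signalling genes comprised 36 promoter and 133 distal regions. A wider peak can come from a broader or from a stronger signal, and the lists do not separate them. In vivo regulatory cells (3 groups) had shorter covered lengths than conventional cells (both groups) at 35 of the 169 (10% of all regions) and longer ones at 7 (10.4%). The median difference was -0.06 on the log2 scale for the 169 and 0.04 for all regions. Without centring the counts were 55 and 0, and the median of all regions was -0.24, so the changes here are relative to that shift. Among distal regions 32 of 133 were shorter and 7 longer, against 13.6% of all non-promoter regions in each direction. Among promoter regions 3 of 36 were shorter (5.67% of all promoter regions) and 0 longer (6.46%). Within run code BW13, donor Treg against both Tconv groups, the counts were 13 shorter and 1 longer. Without donor Tconv replicate 1 or 2 there were 19 and 21 shorter.

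The clearest shortening was at Prkcq r7, 1.6 kb from the Prkcq start. It was covered over 1221 and 1078 bp in donor Tconv, 587 and 962 bp in host Tconv, 466 and 485 bp in donor Treg, 443 and 328 bp in host pTreg, 361 and 438 bp in host tTreg, and 1067 and 1113 bp in iTreg. All 6 in vivo regulatory values lay below all conventional and iTreg values. The difference between in vivo regulatory and conventional cells was -0.88 (SE 0.094, limma adjusted p = 0.000138) on the log2 scale. Prkcq r8, described above, was also wider in conventional than in in vivo regulatory libraries, and Prkcq r16 had a peak only in conventional libraries. Among the regions of Prkcq with a peak in every library, 5 distal regions, Prkcq r7 included, were shorter and 1, Prkcq r11, was longer.

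Cd3e r2, 10.8 kb from the Cd3e start, was covered over 803, 671, 594 and 988 bp in conventional libraries, 400 and 387 bp in donor Treg, 439 and 331 bp in host pTreg, 237 and 275 bp in host tTreg, and 553 and 640 bp in iTreg, a difference of -0.87 (SE 0.104, limma adjusted p = 0.000256). Stim1 r6, in the gene for the calcium sensor of the endoplasmic reticulum, was covered over 914, 880, 560 and 1023 bp, against 351 and 444, 474 and 389, and 244 and 320 bp in the regulatory groups in vivo and 411 and 492 bp in iTreg (-0.90, SE 0.115, limma adjusted p = 0.000371). The groups in vivo did not overlap at either region. Lat r1 was covered over 692, 610, 581 and 617 bp in conventional libraries, over 187 to 473 bp in vivo in regulatory libraries, and over 586 and 690 bp in iTreg (-0.77, SE 0.101, limma adjusted p = 0.000428). Pag1 r19 was covered over 770, 841, 744 and 818 bp, over 225 to 436 bp, and over 855 and 848 bp in the same groups (-0.87, SE 0.127, limma adjusted p = 0.000781). At both, iTreg lay with the conventional libraries.

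Fyn r13, 65.1 kb inside the gene, went the other way, with 643, 635, 423 and 581 bp in conventional libraries, 660 and 1011 bp in donor Treg, 953 and 739 bp in host pTreg, 721 and 882 bp in host tTreg, and 384 and 568 bp in iTreg. Every in vivo regulatory value exceeded every conventional and iTreg value, and the difference was 0.82 (SE 0.126, limma adjusted p = 0.00109). Without centring it was 0.54 and missed the threshold (limma adjusted p = 0.0545). The other longer regions were Fyn r1, Grb2 r1, Plcg1 r3, Prkcq r11, Rasgrp1 r8 and Ubash3b r27; leaving out 1 library left between 2 and 11 longer regions, with 2 when either donor Tconv library or host pTreg replicate 2 was left out, 3 without host Tconv replicate 1 or donor Treg replicate 1, 4 without donor Treg replicate 2 or either iTreg library, and 11 without host Tconv replicate 2.

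The 3 shorter promoter regions were Dgka r3, Sla2 r3 and Txk r9. Dgka r3 covers the start of the gene for diacylglycerol kinase alpha, which removes the diacylglycerol that Plcg1 makes, and also the gene Pym1. It was covered over 6313, 6361, 5334 and 6494 bp in conventional libraries, 6008 and 4212 bp in donor Treg, 2676 and 2494 bp in host pTreg, 1913 and 2678 bp in host tTreg, and 6382 and 6808 bp in iTreg. The 4 host regulatory libraries lay far below all others, while donor Treg replicate 1 lay within the conventional range and replicate 2 below it. The pooled difference of -0.70 (SE 0.107, limma adjusted p = 0.00109) became -0.05 (limma adjusted p = 0.888) within run code BW13, where the only regulatory cells are donor Treg. The window at start 1 of Dgka lacked a peak in those 4 host libraries and had one in the 8 others. Txk r9 (-0.51, SE 0.126, limma adjusted p = 0.0153) lost its call within BW13 and without either donor Tconv library, and Sla2 r3 (-0.84, SE 0.256, limma adjusted p = 0.0478) within BW13 and in 8 of the settings that leave out a library.

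**Figure D5:**
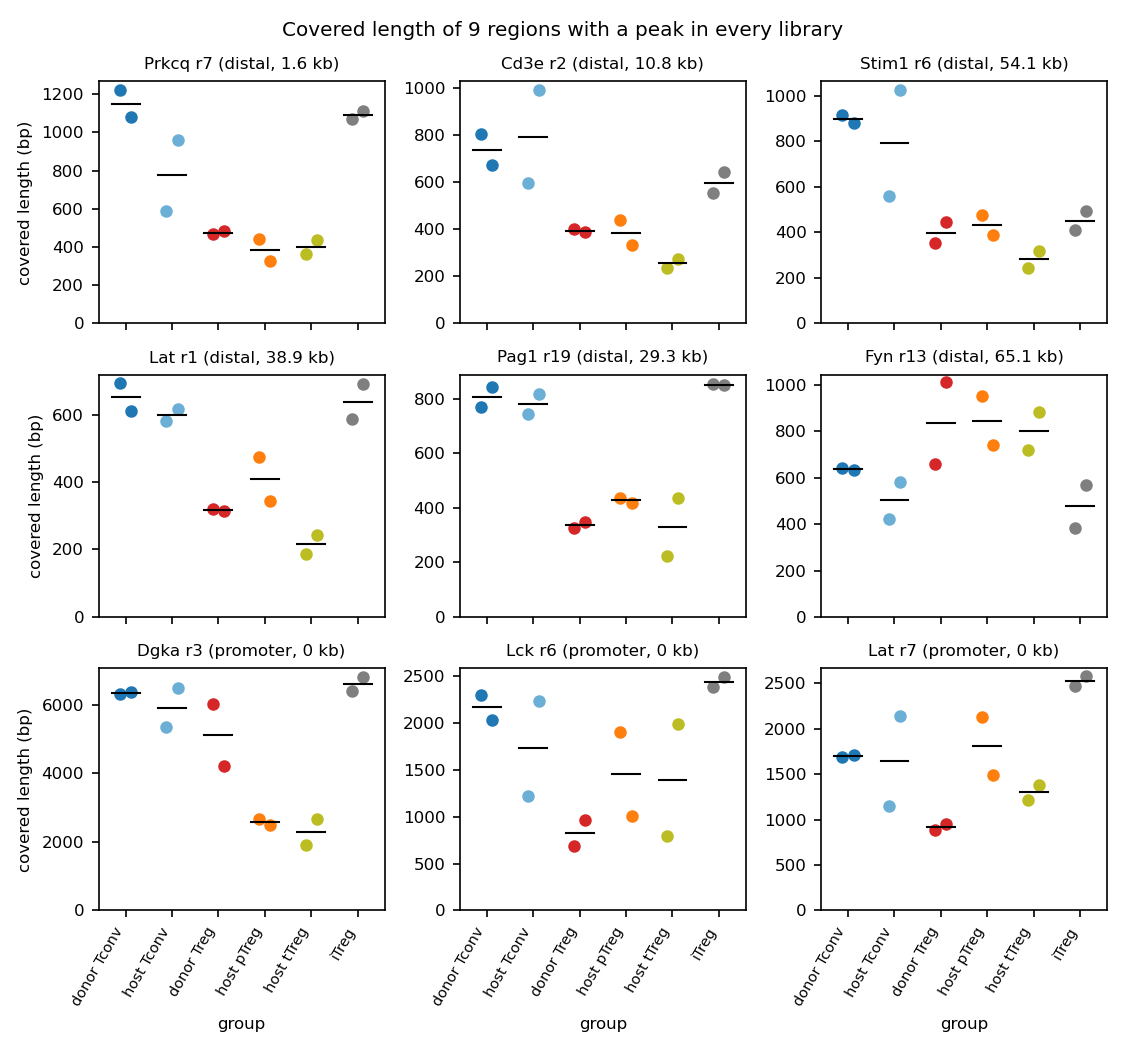
Covered length in bp per library (dots) and group mean (line) for 9 regions with a peak in all 12 libraries. Prkcq r7, Cd3e r2, Stim1 r6, Lat r1 and Pag1 r19 are lower in all in vivo regulatory libraries than in all conventional ones, Fyn r13 is higher, and Dgka r3 is low in the host regulatory groups only.

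Within the donor cells alone, 9 of the 169 regions were shorter in donor Treg than in donor Tconv (2.33% of all regions) and 0 were longer (0.863%). All 9 were among the 133 distal regions, where 3.43% of all non-promoter regions were shorter. Prkcq r7 differed by -0.98 (SE 0.145, limma adjusted p = 0.0060), Pag1 r14 by -1.34 (SE 0.239, limma adjusted p = 0.0165), Ubash3b r20 by -1.14 (SE 0.232, limma adjusted p = 0.0245) and Pag1 r19 by -0.96 (SE 0.196, limma adjusted p = 0.0246). The others were Stim1 r6, Grap2 r4, Ptpn22 r3, Lcp2 r4 and Lat r1, with differences from -0.89 to -0.74. The count fell to 0 without either donor Tconv library, to 1 without donor Treg replicate 1 and to 2 without donor Treg replicate 2, and it was 2 without centring. These 4 libraries also enter the in vivo comparison above.

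Against iTreg, donor Treg had longer covered lengths at 18 regions (8.34% of all) and shorter ones at 15 (7.66%). The 18 were distal. Cblb, whose product restrains T cells that lack costimulation, had 5 of them, with Cblb r20 covered over 894 and 859 bp in donor Treg and 579 and 583 bp in iTreg (1.01, limma adjusted p = 0.00174). Fyn had 4, with Fyn r13 at 1.22 (limma adjusted p = 0.00218), and Rasgrp1 r16, 47.0 kb from the start, was covered over 820 and 791 bp against 197 and 404 bp (1.93). The shorter regions comprised 10 distal regions (8.94% of all non-promoter regions) and 5 promoters (6.1% of all promoter regions). None of the promoters was longer (3.48%). Lat r7 differed by -1.05 (SE 0.161, limma adjusted p = 0.00174), Lck r6 by -1.17 (SE 0.329, limma adjusted p = 0.042), Ubash3a r2 by -0.96, Dgkz r2 by -0.93 and Malt1 r5 by -0.83. For Malt1 either gene end was used, so Malt1 r5 may not lie at the start of the gene. The Lck r6 call was lost with the replicate number as a block (limma adjusted p = 0.0512) and whenever 1 library of either group was left out. Without centring the counts were 0 longer and 26 shorter. Leaving out 1 library of either group gave 5 to 10 longer and 7 to 10 shorter regions, with 6 and 7 without donor Treg replicate 1, 9 and 9 without donor Treg replicate 2, 5 and 10 without iTreg replicate 1, and 10 and 8 without iTreg replicate 2.

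No region of the 169 passed in donor Tconv against host Tconv (0.0793% of all regions longer, 0.00467% shorter) or in host pTreg against host tTreg (0.135% and 0.0233%). At an unadjusted p under 0.05, limma gave 6 longer and 6 shorter regions in the first comparison and 13 and 4 in the second. Without host Tconv replicate 2, 4 regions were longer in donor Tconv; without host Tconv replicate 1, 1 was shorter. Without host tTreg replicate 2, 7 were longer in host pTreg.

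The other 50 genes of the pathway, which extend from costimulation to calcium, Ras and NF-kappa-B signalling, are given for reference. They had 508 regions, of which 191 (37.6%, against 27.9% of all regions) had a peak in all 12 libraries. Of their 58 promoter regions 53 did so, against 71.5% of all promoter regions. In the donor cells, 66 were present in Tconv but not in Treg, and 9 the reverse. Of all regions with a peak in any of these 4 libraries, 19.9% and 2.41% had these patterns. The number of such regions of the 50 genes was not counted. In the comparison of 8 with 4 libraries, 10 of 135 tested were called for conventional and 4 for regulatory cells (adjusted p = 0.0317, Fisher's exact test). Of all regions tested, 4.98% and 1.39% were called. Cd28, the main costimulatory receptor, had a pair of conventional calls, covered over 496, 452, 414 and 535 bp at 7.8 kb and over 428, 420, 357 and 507 bp at 40.0 kb from an end. Single conventional regions lay, among others, at Cd5, an inhibitory receptor, at the kinase gene Tec, at Trat1, which binds the receptor, and at the calcium sensor Stim2. The lipid phosphatase gene Inpp5d had a regulatory call, with 370 and 391 bp in donor Treg, 1070 and 983 bp in host pTreg, 542 and 905 bp in host tTreg and 959 and 983 bp in iTreg. In covered length, the in vivo regulatory groups were longer at 21 and shorter at 16 of 191 regions of these genes, against 10.4% and 10% of all regions.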

How the data were processed

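The 12 ATAC-seq libraries fall into 6 groups, and the authors deposited 1 peak list per library. The submitters' processing notes name mm10, HOMER 4.10, Bowtie2 2.3.3 and bedtools; the sources used here do not give their roles, their settings or any shift of reads. The deposited score was 1000 for every peak and was not used; the coordinates are the measurement. No peak was narrower than 150 bp, the depth is unknown, and the sources used here do not explain the intersection that the list names mention.

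Peaks sharing 1 bp were merged, and regions were assigned to RefSeq protein-coding genes of GRCm38.p6, with a distance limit of 50 kb. Starts by strand were known for 30 of the 37 genes; for Sla, Cd6, Malt1, Pag1, Cd4, Cd2 and Ptpn2 either gene end was used. Presence in 2 groups was counted without a test. Regulatory and conventional libraries entered Fisher's exact test, two-sided. Covered length was compared with limma 3.58.1 (R 4.3.3, trend and robust options), with all 12 libraries in 1 fit with 6 group means. Both used Benjamini-Hochberg adjustment at 0.05 over all regions tested, and both were run on simulated data. For Fisher's exact test the planted regions were complete splits that had to be called, so that run checked only the code. Other steps used Python 3.11.15, numpy 2.4.6, pandas 2.3.3, scipy 1.17.1, statsmodels 0.14.6 and matplotlib 3.10.9.

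The member genes, the lists and the rules were chosen with earlier results of these data known. All 37 genes are counted. Genes are named with values where a promoter lacks a peak in some library, where a region passes Fisher's exact test or is found in 1 group only, where a promoter region passes in covered length, or where a gene is among the 6 with most regions in 1 donor group only; the Cd3 cluster, Cd247, Cd4, Lck, Zap70, Lat and Lcp2 are always named. Other distal regions are shown as examples, chosen after their values were seen. Of the other pathway genes, up to 8 past the threshold were to be named, widest first; some of these are not reported here. Alternatives were lists of equal length, wider peaks, coverage of at least 50% of a region, a limit of 10 kb, a promoter window of 2000 bp, other scalings, leaving out each library and, added after seeing the data, run code BW13 only.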

Additional observations from a re-analysis of the deposited data

How the results depend on the processing

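With every list cut to the length of the shortest, 22 regions of the signalling genes were in donor Treg but not donor Tconv and 30 the reverse, 57 in donor Treg but not iTreg and 27 the reverse, 2 in donor Tconv but not host Tconv and 10 the reverse, 2 in host tTreg but not host pTreg, 11 in iTreg alone, and 0 were called for regulatory cells. That call count was also 0 with a region counted only where at least 50% was covered, or with peaks of at least 300 bp. At 50% coverage, 62 regions were in every library, 108 in donor Tconv but not donor Treg and 10 in donor Tconv but not host Tconv; peaks of 300 bp gave 12 for the last. A limit of 10 kb gave 0 in host tTreg but not host pTreg. Without iTreg, Fisher's exact test called 6 and 28.

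In covered length, no centring gave 2 shorter in donor Treg than donor Tconv, 0 longer and 26 shorter than in iTreg, and 0 and 55 in vivo. A mean of at least 500 bp gave 9 shorter against iTreg and 3 longer in vivo. Fits of only the groups compared gave 1 longer and 18 shorter for the donor groups, 1 longer in donor Tconv than host Tconv, 32 longer against iTreg and 4 longer in vivo. Run code BW13 alone gave 1 and 13. The causes were not tested, beyond fewer samples where libraries were dropped. The other 70 values of this kind stayed within 1.5 times of the value reported.

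Leaving out 1 library gave 13 to 22 regions in donor Treg but not donor Tconv and 74 to 87 the reverse, 12 to 25 in donor Tconv but not host Tconv and 3 to 11 the reverse, 11 to 41 in host pTreg but not host tTreg and 1 to 11 the reverse, 33 to 43 in donor Treg but not iTreg and 94 to 107 the reverse, 29 to 42 in iTreg alone and 169 to 176 in every library. Fisher's exact test called 0 to 16 for conventional and 0 to 2 for regulatory cells. Covered length, with 1 library of the groups compared left out, gave 0 longer and 0 to 2 shorter for the donor groups, 0 to 4 and 0 to 1 for donor against host Tconv, 0 to 7 and 0 for host pTreg against host tTreg, 5 to 10 and 7 to 10 against iTreg, and 2 to 11 and 19 to 37 in vivo. Leaving out a library of another group, which changes only the shared spread, gave 0 to 1 longer and 8 to 12 shorter for the donor groups and 17 to 25 longer and 12 to 16 shorter against iTreg.

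Same-numbered libraries did not deviate together: of 15 correlations between groups, from -0.184 to 0.145, 1 exceeded 0.1. With the replicate number as a block, limma gave 0 longer and 8 shorter for the donor groups, 18 and 13 against iTreg, 7 and 36 in vivo, and 0 in the other comparisons. The unknown depth limits every absent peak.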
